A study of Mus musculus with 22 samples.

Results

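The 36 genes described here encode known activators and repressors of the 2C-like state, and their messenger RNA was followed in mouse embryonic stem cells depleted of the ribosomal protein genes Rpl14 and Rpl11 or of the transcription factor gene Dux. They were taken by name, as the rows for Dppa2, Dppa4 and the regulators of Dux and of the 2C-like state. All 36 were found among the 24819 genes of both deposited tables. All 36 also passed the filter on low values in both fits, so no member is missing from a test.

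The cells were E14, an established mouse embryonic stem cell line grown on gelatin in medium with serum and leukemia inhibitory factor. Each library came from cells transfected with 2 small interfering RNA (siRNA) treatments and harvested after 3 days. The groups were siNT with siNT (called siNT here), siNT with siRpl14, siNT with siRpl11, siNT with siDux, siRpl14 with siRpl11 and siRpl14 with siDux, and every group except the 2 combined knockdowns therefore also received siNT. The labels do not spell out NT, and siNT was used as the control. Set 1 held duplicates of siNT, of the single knockdowns siRpl14 and siRpl11, and of their combination (8 libraries). Set 2, from the same table, held 4 single libraries, for siNT, for siDux, for siRpl14 and for siRpl14+siDux, and was told apart from set 1 by the style of the titles. Set 3, the other table, held duplicates of the same kinds as set 2 together with single siRpl11 and siRpl14+siRpl11 libraries (10 in all). No label states whether replicates were separate cultures, and p-values therefore cover no more than the spread among these libraries, which may be technical. An siRNA lowers a transcript without removing the gene, and all results are from 1 cell line.

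The 2C-like state is a rare state of embryonic stem cells in which genes of the embryo at the 2-cell stage are transcribed, many of them switched on by Dux. Dppa2 and Dppa4 are small DNA-binding proteins that act as a pair and are needed for Dux expression. Most other members hold the state back. TRIM28 recruits the histone H3K9 methyltransferase SETDB1, the G9a/GLP enzymes and LSD1 complexes silence retroelements and their neighbouring genes, CAF-1 assembles nucleosomes behind the replication fork, the variant Polycomb complex PRC1.6 silences germline and early genes, SUMO modification supports these silencing complexes, and nucleolin and LIN28A act with TRIM28 near the nucleolus to keep Dux off.

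Rpl14 stood at 60.2% and 27.1% of the siNT mean in siRpl14 replicates 1 and 2 of set 1, and at 15.6% and 35.3% in the combined knockdown. Rpl11 stood at 34.9% and 15.2% with siRpl11 and at 13.2% and 33.4% in the combined knockdown. In set 2 Rpl14 was at 34.6% with siRpl14 and 35.1% with siRpl14+siDux, and in set 3 it was at 22.7 to 28.8% in those groups. Replicates of set 1 thus differed in how far the target was lowered. All 8 embryonic stem cell markers were at 1 FPKM (fragments per kilobase of transcript scaled to the size of the library) or more in every library, with summed levels of 1851 to 2626 FPKM in set 1, 1702 to 2922 FPKM in set 2 and 1064 to 1744 FPKM in set 3. Summed levels of 8 fibroblast feeder markers were 0 to 18.8 FPKM over all libraries, with Dcn and Postn listed at 0 in each. The depth of the libraries is unknown. Between 30.1 and 32.1% of genes were listed at 0 in sets 1 and 2, and between 50.5 and 56.2% in set 3, where the lowest values are coarser.

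In the siNT libraries of set 1 the members spanned from 3.12 ± 0.78 FPKM for Ring1, a ubiquitin ligase of Polycomb complexes, to 607 ± 94.8 FPKM for Trim28 (SD, n = 2). Ncl, which encodes nucleolin, followed at 320 ± 44.3 FPKM, and the SUMO-activating enzyme subunits Uba2 and Sae1 stood at 221 ± 3.75 and 195 ± 6.43 FPKM. Dppa4 was at 98.3 ± 0.095 FPKM and Dppa2 at 45.1 ± 10.2 FPKM. The lowest levels after Ring1 were those of Smchd1 (9.87 ± 2.07 FPKM), Zmym2 (11.01 ± 0.86 FPKM), E2f6 (11.8 ± 1.04 FPKM) and Rcor1 (12.2 ± 2.14 FPKM), and these neighbours did not differ beyond their spread. The order was not the same in the other table. Trim28 was at 59.6 and 67.2 FPKM in the siNT libraries of set 3 against 540 and 674 FPKM in set 1, and Cbx3, which encodes the heterochromatin protein HP1 gamma, was at 245 and 219 FPKM against 53.5 and 53.3 FPKM. Such gaps lie between tables and are a description only. In set 3 Ring1, Pias4 and Chaf1b were each listed at 0 in at least 1 library, and no fold is given for them there. Sumo2, Cbx3 and Hdac1 have processed pseudogenes in the mouse genome, and Dux and Zscan4d have near-identical copies, so how reads were shared among such copies is uncertain for these genes.

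**Figure D1:**
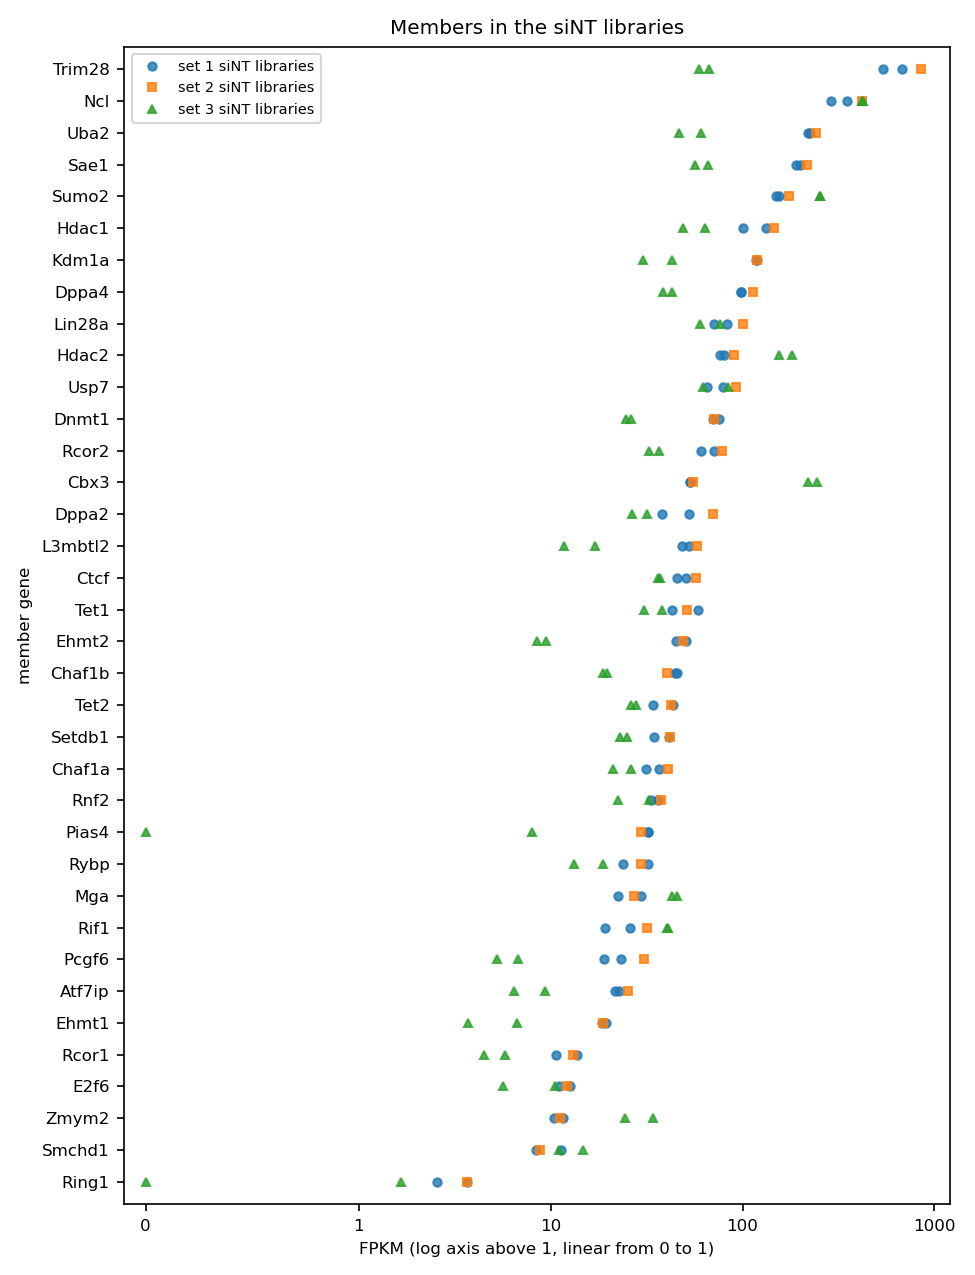
FPKM of each of the 36 members in every siNT library, on an axis that is logarithmic above 1 FPKM and linear from 0 to 1 FPKM. Points are single libraries of set 1 (circles), set 2 (squares) and set 3 (triangles), and members are ordered by level in sets 1 and 2. Trim28 leads in sets 1 and 2 but stands at 59.6 and 67.2 FPKM in set 3.

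Promoter windows from RefSeq (build GRCm38.p6, 250 bases before to 50 bases after the start of transcription) were matched for 29 of the 36 members, which had 34 windows. The windows shown are those of the members called with siRpl14 in set 1 that have one: Atf7ip, Lin28a and Usp7, which rose, and Setdb1, which fell. Atf7ip lies at chr6:136518601-136518900 on the plus strand. Lin28a lies at chr4:134018767-134019066, Usp7 at chr16:8738293-8738592 and Setdb1 at chr3:95357153-95357452, all on the minus strand. Each is printed 5' to 3' along its gene, with capitals marking the CCAAT box (CCAAT or, on the other strand, ATTGG) and the GC box (GGGCGG or CCGCCC).
Atf7ip: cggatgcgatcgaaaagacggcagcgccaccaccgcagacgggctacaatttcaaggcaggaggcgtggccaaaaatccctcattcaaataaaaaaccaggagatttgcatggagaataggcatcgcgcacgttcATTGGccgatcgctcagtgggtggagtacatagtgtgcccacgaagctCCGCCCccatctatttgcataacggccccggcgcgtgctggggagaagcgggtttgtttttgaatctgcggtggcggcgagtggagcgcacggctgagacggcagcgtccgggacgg
Lin28a: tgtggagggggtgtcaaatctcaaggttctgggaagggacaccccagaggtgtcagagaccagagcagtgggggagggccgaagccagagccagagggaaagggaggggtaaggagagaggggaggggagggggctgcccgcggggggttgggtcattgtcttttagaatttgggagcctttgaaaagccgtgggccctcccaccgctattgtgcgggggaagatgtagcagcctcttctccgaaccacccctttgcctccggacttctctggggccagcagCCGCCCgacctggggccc
Usp7: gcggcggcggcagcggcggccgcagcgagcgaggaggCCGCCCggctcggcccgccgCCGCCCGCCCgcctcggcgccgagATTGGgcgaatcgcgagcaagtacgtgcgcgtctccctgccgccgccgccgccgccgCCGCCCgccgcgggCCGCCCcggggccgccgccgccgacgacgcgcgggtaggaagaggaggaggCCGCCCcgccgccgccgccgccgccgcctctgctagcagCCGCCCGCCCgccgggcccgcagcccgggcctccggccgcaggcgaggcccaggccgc
Setdb1: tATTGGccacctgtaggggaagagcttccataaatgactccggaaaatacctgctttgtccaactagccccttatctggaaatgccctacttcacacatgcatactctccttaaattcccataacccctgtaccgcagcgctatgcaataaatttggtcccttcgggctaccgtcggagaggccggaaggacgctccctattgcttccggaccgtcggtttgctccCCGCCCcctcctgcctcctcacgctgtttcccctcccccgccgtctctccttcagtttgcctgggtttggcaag
The GC box occurred in all 4 windows, with 8 matches for Usp7 and 1 match each for Atf7ip, Lin28a and Setdb1, where overlapping matches count separately. The CCAAT box occurred in those of Atf7ip, Usp7 and Setdb1. The GC box was present in 79.4% of the 34 member windows and in 35.7% of all 32851 windows of the table, and the CCAAT box in 32.4% and 37.4%. The E-box CACGTG was in 11.8% of member windows and 7.15% of all windows, the E2F motif TTCCCGC in 11.8% and 4.6%, and the cyclic AMP response element TGACGTCA in 0% and 1.79%, each searched on both strands. Member windows held a median of 30 CG dinucleotides against 7 in all windows. The set of all windows was not limited to expressed genes, whereas every member passed the filter on low values, so these shares do not compare like with like. A gene with more than 1 window was counted once per window. Usp7, with 63 CG dinucleotides and 86% G or C, and Lin28a, with 10 and 63.3%, lay far apart although both rose with siRpl14. These matches describe the letters in the windows and nothing about binding.

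Depletion of Rpl14 raised the activator gene Dppa2 and 4 other members, Lin28a, Atf7ip, Usp7 and Rif1, and lowered Setdb1. Dppa2 was 2.10-fold and Lin28a 1.96-fold above siNT, and the other 4 changes were smaller. These 6 of 36 members (16.7%) passed limma's test at an adjusted p under 0.05 in set 1, against 31.5% of the 12129 genes tested (18.1% higher and 13.4% lower). The share of members called was thus below that of all genes, and the median change of the members, 0.05 on the log2(FPKM + 1) scale, was close to the 0.03 of all genes tested. At an unadjusted p under 0.05 there were 10 members, against 5548 of the 12129 genes. All changes below are on that scale, which understates changes of low genes, with SE over 2 libraries a group.

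Among the activators, Dppa2 was at 37.9 and 52.3 FPKM in siNT replicates 1 and 2 and at 77.0 and 116 FPKM with siRpl14. The groups did not overlap, and the higher siRpl14 value was that of replicate 2, the library with Rpl14 at 27.1% of siNT. Replicate 2 was the higher in siNT as well, and a link to the depth of knockdown was not tested. The change was 1.07 ± 0.26 (adjusted p = 0.0192). Its partner Dppa4 did not pass. It was at 98.3 and 98.2 FPKM in siNT and 88.3 and 78.8 FPKM with siRpl14 (-0.23 ± 0.10, adjusted p = 0.0931).

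Of the 5 genes of the HP1, TRIM28 and SETDB1 group, 1 rose, 1 fell and 3 did not pass, where 18.1% of all genes rose and 13.4% fell. Atf7ip, which encodes the cofactor that stabilises SETDB1 in the nucleus, went from 21.6 and 22.6 FPKM to 29.8 and 39.3 FPKM (0.61 ± 0.14, adjusted p = 0.0164). Setdb1 itself went from 34.5 and 41.6 FPKM to 30.7 and 27.1 FPKM (-0.38 ± 0.12, adjusted p = 0.0437). The enzyme and its cofactor therefore moved in opposite directions in the same libraries. Trim28, the scaffold that recruits SETDB1, was at 540 and 674 FPKM in siNT and 787 and 638 FPKM with siRpl14, so its groups overlapped (0.23 ± 0.15, adjusted p = 0.247). Cbx3 and Smchd1, a structural protein of silent chromatin, differed from siNT by 0.03 ± 0.09 and 0.10 ± 0.14.

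None of the G9a/GLP, CAF-1, LSD1/CoREST or SUMO genes passed in set 1, where 31.5% of all genes did. No test of these subgroups was run, and a fit of sets 1 and 2 together, given below, called Ehmt2, Chaf1b, Kdm1a, Rcor1 and Uba2 lower. Ehmt2, which encodes G9a, was at 44.9 and 51.0 FPKM in siNT and 40.9 and 27.6 FPKM with siRpl14. Chaf1b, the middle subunit of CAF-1, was at 44.3 and 45.3 FPKM and then 37.7 and 24.5 FPKM. For both genes the siRpl14 values lay below the siNT values, most so in replicate 2. The changes were -0.50 ± 0.24 (adjusted p = 0.148) and -0.55 ± 0.26 (adjusted p = 0.137). Their partners Ehmt1 and Chaf1a, the largest CAF-1 subunit, differed by 0.00 ± 0.10 and -0.03 ± 0.11. Chaf1a was at 31.5 and 36.9 FPKM in siNT and 35.0 and 31.7 FPKM with siRpl14. Kdm1a, which encodes the histone demethylase LSD1, was at 118 FPKM in both siNT libraries and at 106 and 94.2 FPKM with siRpl14 (-0.24 ± 0.10, adjusted p = 0.102). Sumo2, the modifier itself, was at 154 and 150 FPKM and then 177 and 162 FPKM (0.15 ± 0.09, adjusted p = 0.237).

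Of the 8 PRC1.6 genes only Usp7 passed, beside the 31.5% of all genes that did. Usp7 encodes a deubiquitinase found with PRC1.6 that also acts on Mdm2 and p53. It rose from 64.9 and 79.5 FPKM to 107 and 113 FPKM (0.61 ± 0.11, adjusted p = 0.00844), the smallest adjusted p of the members in this comparison. E2f6, the DNA-binding subunit, had a change of similar size with a wider error (0.56 ± 0.22, adjusted p = 0.0826). Pcgf6, the subunit that defines the complex, was at 19.0 and 23.4 FPKM in siNT and 24.3 and 25.3 FPKM with siRpl14 (0.23 ± 0.12, adjusted p = 0.171).

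Lin28a, an RNA-binding protein gene, rose from 71.2 and 83.1 FPKM to 135 and 171 FPKM (0.97 ± 0.22, adjusted p = 0.0146). Rif1, a regulator of replication timing, rose from 19.2 and 26.0 FPKM to 31.2 and 38.4 FPKM (0.61 ± 0.17, adjusted p = 0.0312). Ncl overlapped between the groups, with 289 and 351 FPKM in siNT and 331 and 310 FPKM with siRpl14 (0.01 ± 0.12, adjusted p = 0.968). The maintenance DNA methyltransferase gene Dnmt1, the methylcytosine dioxygenase genes Tet1 and Tet2 and the insulator gene Ctcf did not pass, with changes of -0.01 ± 0.10, -0.05 ± 0.17, -0.32 ± 0.13 and 0.25 ± 0.14.

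The calls rest on few libraries. Without siNT replicate 1 or without siRpl14 replicate 2 no member was called, where 6.32% and 6.62% of all genes were. Without siNT replicate 2 there were 3 calls (11.9% of all genes), and without siRpl14 replicate 1 there were 9 (32.2%). Setdb1 lost its call without any 1 of 7 of the 8 libraries, siRpl14 replicate 1 being the exception.

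**Figure D2:**
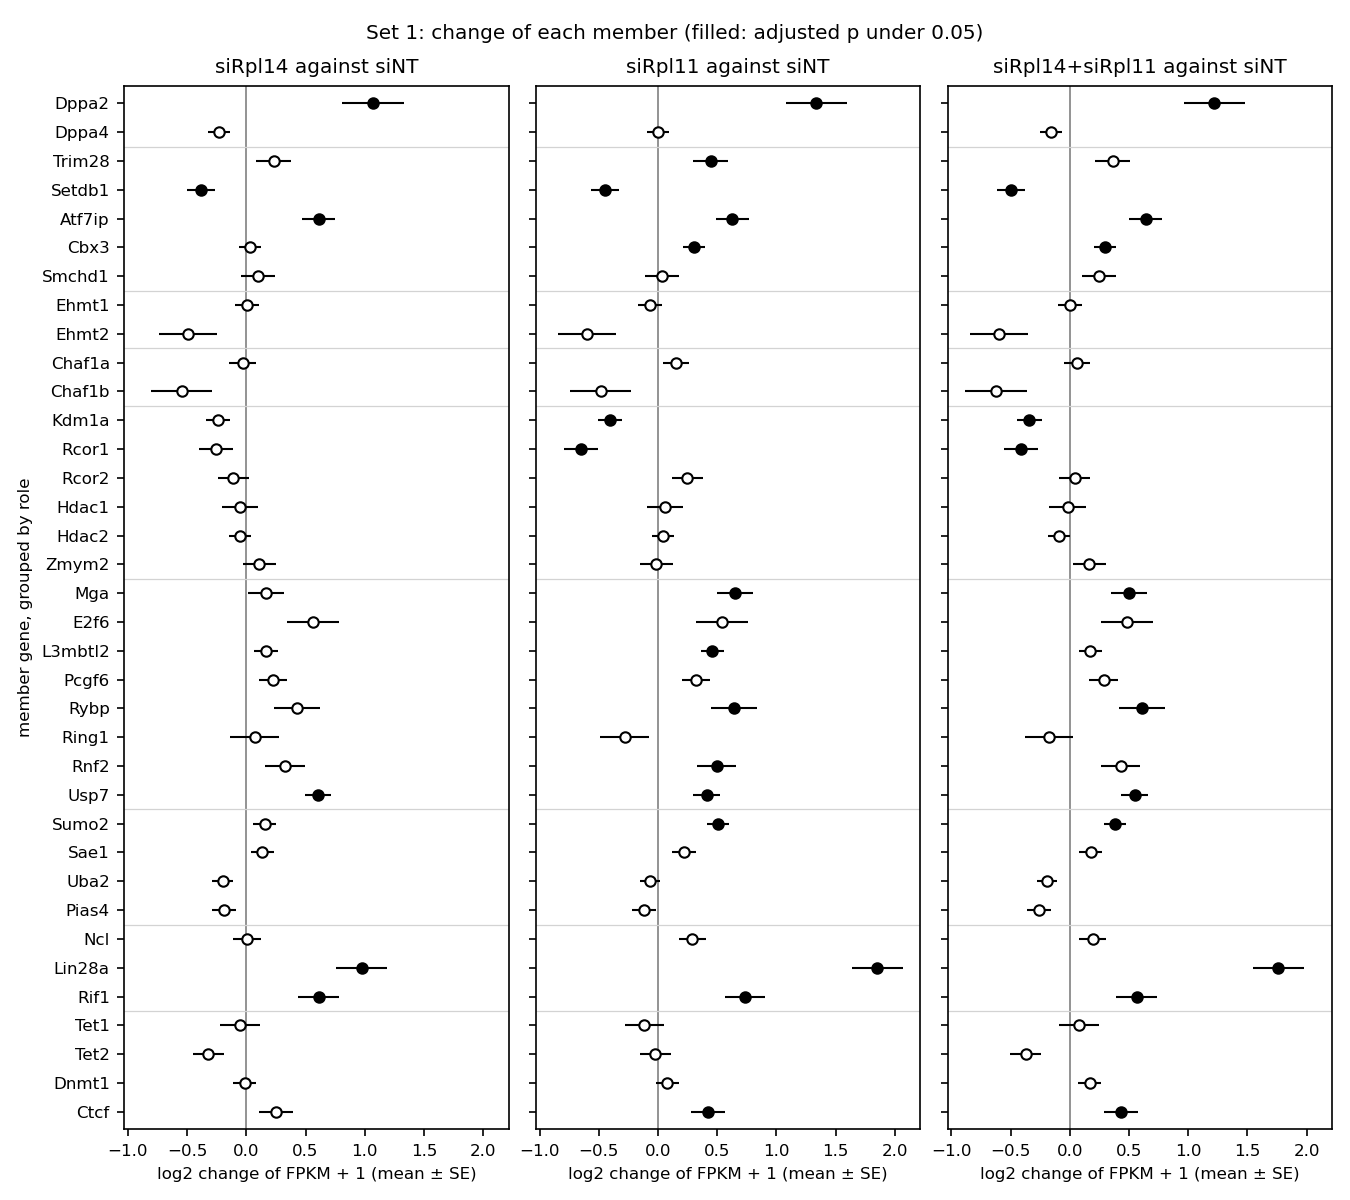
Change on the log2(FPKM + 1) scale (± limma's moderated SE, set 1, 2 libraries a group) for each of the 36 members. Panels are against siNT with siRpl14 (left), siRpl11 (middle) and both (right). Filled points have an adjusted p under 0.05, and grey lines separate the roles. Dppa2 and Lin28a stand farthest to the right in all 3 panels, and Setdb1 is below 0 and filled in all 3.

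Markers of other states moved in the same libraries, in which 18.1% of all genes rose and 13.4% fell. Of 6 trophectoderm markers tested, 3 rose with siRpl14 and none fell, and the summed level of the 8 in that list was 49.7 and 75.9 FPKM against 39.9 and 35.5 FPKM in siNT. Of the 8 embryonic stem cell markers 1 rose and 3 fell, with sums of 2157 and 2020 FPKM against 2568 and 2626 FPKM. Of 4 primitive endoderm markers tested, 1 fell and none rose, and of 2 fibroblast feeder markers tested both fell (median -1.19). In bulk RNA fewer cells of a type and less RNA per cell cannot be told apart, and the part of these markers in the members' changes was not tested. Of 22 genes of S phase, the phase in which CAF-1 acts, 1 rose and 8 fell.

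The direction of the 6 calls was the same in the other sets. In the single pair of set 2 all 6 moved the same way, as did 97.8% of the 3822 genes called in set 1, and in set 3 all 6 did, against 74% of the 3478 genes measured there. In set 2, which has no test, Dppa2 was at 123 FPKM with siRpl14 against 69.8 FPKM in siNT, Lin28a at 209 against 101 FPKM, Atf7ip at 41.7 against 25.3 FPKM and Setdb1 at 27.6 against 41.7 FPKM. Usp7 was at 119 against 92.5 FPKM and Rif1 at 36.8 against 31.7 FPKM, the smallest of the 6 differences. Counted by a fold of 1.5 or more in FPKM + 1, 7 of 36 members differed in that pair, against 28.2% of all genes (14.9% higher and 13.2% lower). They were Dppa2, Lin28a, Atf7ip and E2f6, higher, and Chaf1b, Ehmt2 and Tet2, lower, while Setdb1, at a ratio of 0.671 on that scale, was just short of it. Chaf1b was at 22.4 against 40.6 FPKM, Ehmt2 at 26.2 against 49.1 FPKM and E2f6 at 22.8 against 12.1 FPKM.

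In set 3 no member passed the test with siRpl14, where 0.66% of 13189 genes did. An unadjusted p under 0.05 was found for 1632 genes and for 1 member. That member was Dppa2, at 31.7 and 26.7 FPKM in siNT and 58.4 and 42.2 FPKM with siRpl14, groups that did not overlap (0.75 ± 0.25, adjusted p = 0.281). Lin28a was at 59.8 and 75.9 FPKM and then 87.7 and 93.6 FPKM (0.42 ± 0.21, adjusted p = 0.495). Setdb1 was at 25.02 and 22.9 FPKM and then 17.3 and 14.6 FPKM (-0.56 ± 0.32, adjusted p = 0.564). The SE of Setdb1 in set 3 was more than that in set 1, 0.32 against 0.12, and the like held for Atf7ip, at 0.43 against 0.14.

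A fit of the 12 libraries of sets 1 and 2 together, with set as a term, called 15 members with siRpl14, 7 higher and 8 lower, against 47.7% of all genes. The 6 calls of set 1 were among them. Added were E2f6 (0.66 ± 0.17, adjusted p = 0.0123) and Rybp (0.45 ± 0.15, adjusted p = 0.0318) on the higher side. On the lower side were added Chaf1b (-0.64 ± 0.20, adjusted p = 0.0267), Ehmt2 (-0.63 ± 0.19, adjusted p = 0.0256), Tet2 (-0.44 ± 0.12, adjusted p = 0.0124), Dppa4 (-0.31 ± 0.08, adjusted p = 0.0138), Kdm1a, Rcor1 and Uba2. In that fit Dppa2 and Dppa4 were thus called in opposite directions.

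**Figure D3:**
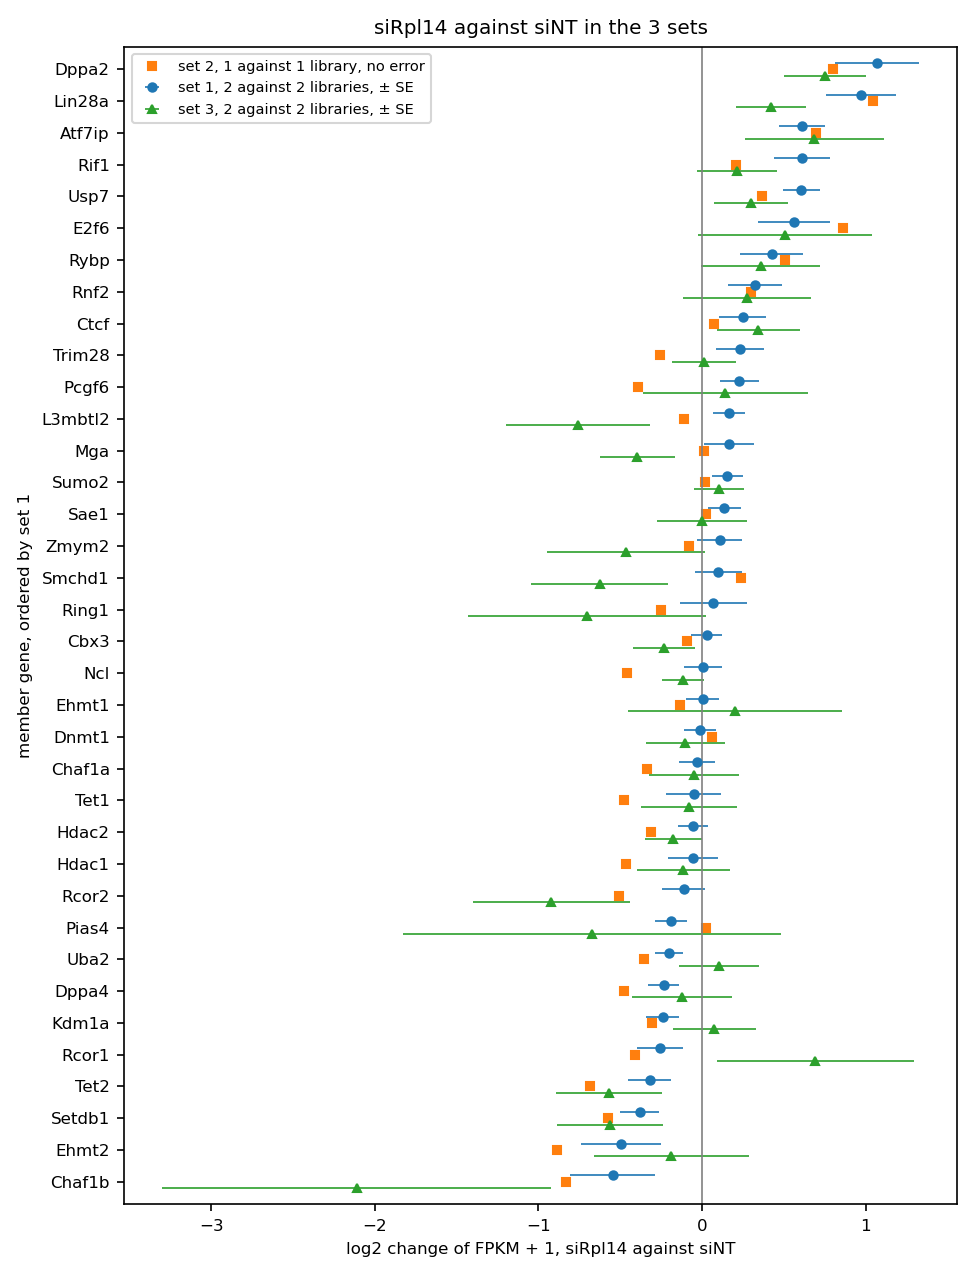
Change with siRpl14 against siNT on the log2(FPKM + 1) scale for the 36 members in set 1 (circles) and set 3 (triangles), each with ± SE and 2 libraries a group, and in the single pair of set 2 (squares, no error). Members are ordered by set 1. Dppa2, Lin28a, Atf7ip, Rif1 and Usp7 lie above 0 and Setdb1 below 0 in all 3 sets.

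With siRpl11 more members were called, most of them higher. In set 1, 16 of 36 (44.4%) passed, 13 higher and 3 lower, against 44.3% of all genes, of which 16% were higher and 28.4% lower. The share called was that of the background, with the members' calls mostly on the higher side and those of all genes mostly on the lower side. The split depends on scaling. Of all calls 36% were higher as deposited, 55.7% with median-ratio rescaling and 51.5% with quantile normalization, while the median change of all genes went from -0.11 to 0.04 and 0.01. The members split 13 to 3 as deposited and with quantile normalization, and 19 to 1 with median-ratio rescaling. No called member changed sign under either scaling. The comparisons with siRpl11 use the same siNT libraries as that with siRpl14, so their values are set side by side only. Of the 8 embryonic stem cell markers 1 rose and 4 fell with siRpl11 (median -0.64), 2 of 6 trophectoderm markers, 1 of 4 primitive endoderm markers and 2 of 2 fibroblast feeder markers tested fell, and their part in the members' changes was not tested.

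Lin28a showed the largest change of any member with siRpl11. It stood at 241 and 326 FPKM, above every siNT and siRpl14 library (1.85 ± 0.22, adjusted p = 0.00239). Dppa2 was at 99.4 and 131 FPKM (1.34 ± 0.26, adjusted p = 0.00667), and in both genes the higher value came from replicate 2, the library with Rpl11 at 15.2% of siNT. Replicate 2 was the higher in siNT as well for both genes, and a link to the depth of knockdown was not tested. Dppa4 was at 98.3 and 98.4 FPKM, level with siNT (0.00 ± 0.10).

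In the silencing group of 5 genes 3 rose and 1 fell, beside the 16% of all genes that rose and the 28.4% that fell. Atf7ip was at 33.1 and 36.3 FPKM (0.63 ± 0.14, adjusted p = 0.0104), Trim28 at 787 and 857 FPKM (0.44 ± 0.15, adjusted p = 0.0392) and Cbx3 at 66.1 and 66.2 FPKM (0.30 ± 0.09, adjusted p = 0.0308). Setdb1 fell to 27.5 and 27.4 FPKM (-0.45 ± 0.12, adjusted p = 0.0189). Atf7ip and Setdb1 thus again differed from siNT in opposite directions. The call of Trim28 was lost without the filter on low values and with the replicate block. That of Cbx3 was lost with quantile normalization and with the replicate block.

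Of the LSD1 and CoREST genes, 2 of 6 passed, both lower, beside the 28.4% of all genes that fell. No test of the subgroup was run. Kdm1a was at 92.5 and 85.3 FPKM (-0.41 ± 0.10, adjusted p = 0.0153). Rcor1, a CoREST scaffold that joins LSD1 to the histone deacetylases, was at 7.89 and 6.78 FPKM against 10.6 and 13.7 FPKM in siNT (-0.65 ± 0.14, adjusted p = 0.00959). Its paralog Rcor2 was at 70.8 and 85.6 FPKM against 60.6 and 70.7 FPKM and did not pass (0.25 ± 0.13, adjusted p = 0.157). The deacetylase genes Hdac1 and Hdac2 and the zinc finger gene Zmym2 had changes within 0.06 of 0. The calls of Setdb1 and Kdm1a were lost after median-ratio rescaling, at -0.29 and -0.24, and that of Rcor1 was kept.

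Of the 8 PRC1.6 genes 5 rose and none fell, beside the 16% of all genes that rose, and no test of the subgroup was run. Mga, the large DNA-binding scaffold, was at 39.8 and 42.0 FPKM against 22.4 and 29.5 FPKM in siNT (0.65 ± 0.15, adjusted p = 0.0122). Rybp was at 39.6 and 47.8 FPKM against 23.8 and 32.0 FPKM (0.64 ± 0.19, adjusted p = 0.0303). L3mbtl2, a chromatin-compacting subunit, was at 67.0 and 72.5 FPKM against 48.5 and 52.4 FPKM (0.46 ± 0.10, adjusted p = 0.00902). These 3 genes, all called in this comparison, had groups that did not overlap, which adds nothing to the test on the same values. The share of all genes without overlap was not counted. The ubiquitin ligase gene Rnf2 (0.50 ± 0.17) and Usp7 (0.41 ± 0.11) also rose. Pcgf6, at 25.9 and 27.1 FPKM, missed the threshold (0.32 ± 0.12, adjusted p = 0.0597).

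Sumo2 rose to 218 and 216 FPKM (0.51 ± 0.09, adjusted p = 0.00597), whereas Sae1, Uba2 and the SUMO ligase gene Pias4 did not pass. Rif1 rose to 34.8 and 41.2 FPKM (0.73 ± 0.17, adjusted p = 0.0121) and Ctcf to 59.2 and 70.9 FPKM (0.42 ± 0.14, adjusted p = 0.0435). Ncl was at 401 and 378 FPKM, above both siNT libraries, without passing (0.29 ± 0.12, adjusted p = 0.0742). Neither G9a/GLP gene and neither CAF-1 gene passed, where 44.3% of all genes did. Chaf1a was at 37.4 and 38.6 FPKM, and Ehmt2 was at 36.8 and 26.5 FPKM (-0.60 ± 0.24, adjusted p = 0.0776).

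Leaving out siRpl11 replicate 2 left 3 calls (14.7% of all genes) and leaving out siNT replicate 1 left 4 (17.5%). The calls of Lin28a and Sumo2 were kept under all 15 alternatives run for them. In the single siRpl11 library of set 3, 14 of the 16 called members differed from the siNT mean in the same direction, against 74.2% of 4681 genes called in set 1, and Cbx3 and Usp7 did not. Lin28a was at 189 FPKM there and Dppa2 at 74.2 FPKM.

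The combined knockdown of Rpl14 and Rpl11 called 13 of 36 members (36.1%) against siNT, 10 higher and 3 lower, against 41.6% of all genes (16.6% higher and 25% lower). Lin28a was at 317 and 219 FPKM (1.76 ± 0.22, adjusted p = 0.00267) and Dppa2 at 125 and 88.2 FPKM (1.22 ± 0.26, adjusted p = 0.00983). Replicate 1, with Rpl14 at 15.6% and Rpl11 at 13.2% of siNT, was the higher for both. A link of these levels to the depth of knockdown was not tested. Atf7ip, Rybp, Rif1, Usp7, Mga, Ctcf, Sumo2 and Cbx3 rose as well, by 0.30 to 0.64. Setdb1 fell to 26.2 and 27.1 FPKM (-0.49 ± 0.12, adjusted p = 0.015), Rcor1 to 9.06 and 8.60 FPKM (-0.41 ± 0.14, adjusted p = 0.0491, a call kept in 3 of 16 alternatives) and Kdm1a to 89.4 and 96.9 FPKM (-0.34 ± 0.10, adjusted p = 0.0304). Tet2, at 28.9 and 30.3 FPKM against 34.2 and 43.4 FPKM, just missed the threshold (-0.37 ± 0.13, adjusted p = 0.0528). Of all calls 39.8% were higher as deposited, 54% with median-ratio rescaling and 51.9% with quantile normalization. Without the combined library of replicate 1 only 1 call was left (10.8% of all genes), without siNT replicate 1 there were 3 (12.9%) and without siNT replicate 2 there were 8 (19.97%). Of the embryonic stem cell markers 1 rose and 6 fell in this comparison, and their part in the members' changes was not tested. In the single siRpl14+siRpl11 library of set 3, Rybp, Cbx3, Rif1 and Mga differed from the siNT mean against their call, by -0.31, -0.27, -0.15 and -0.13. The other called members differed in the direction of their call there, Usp7 by only 0.04. The share of all genes that kept their direction in that library was not counted.

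**Figure D4:**
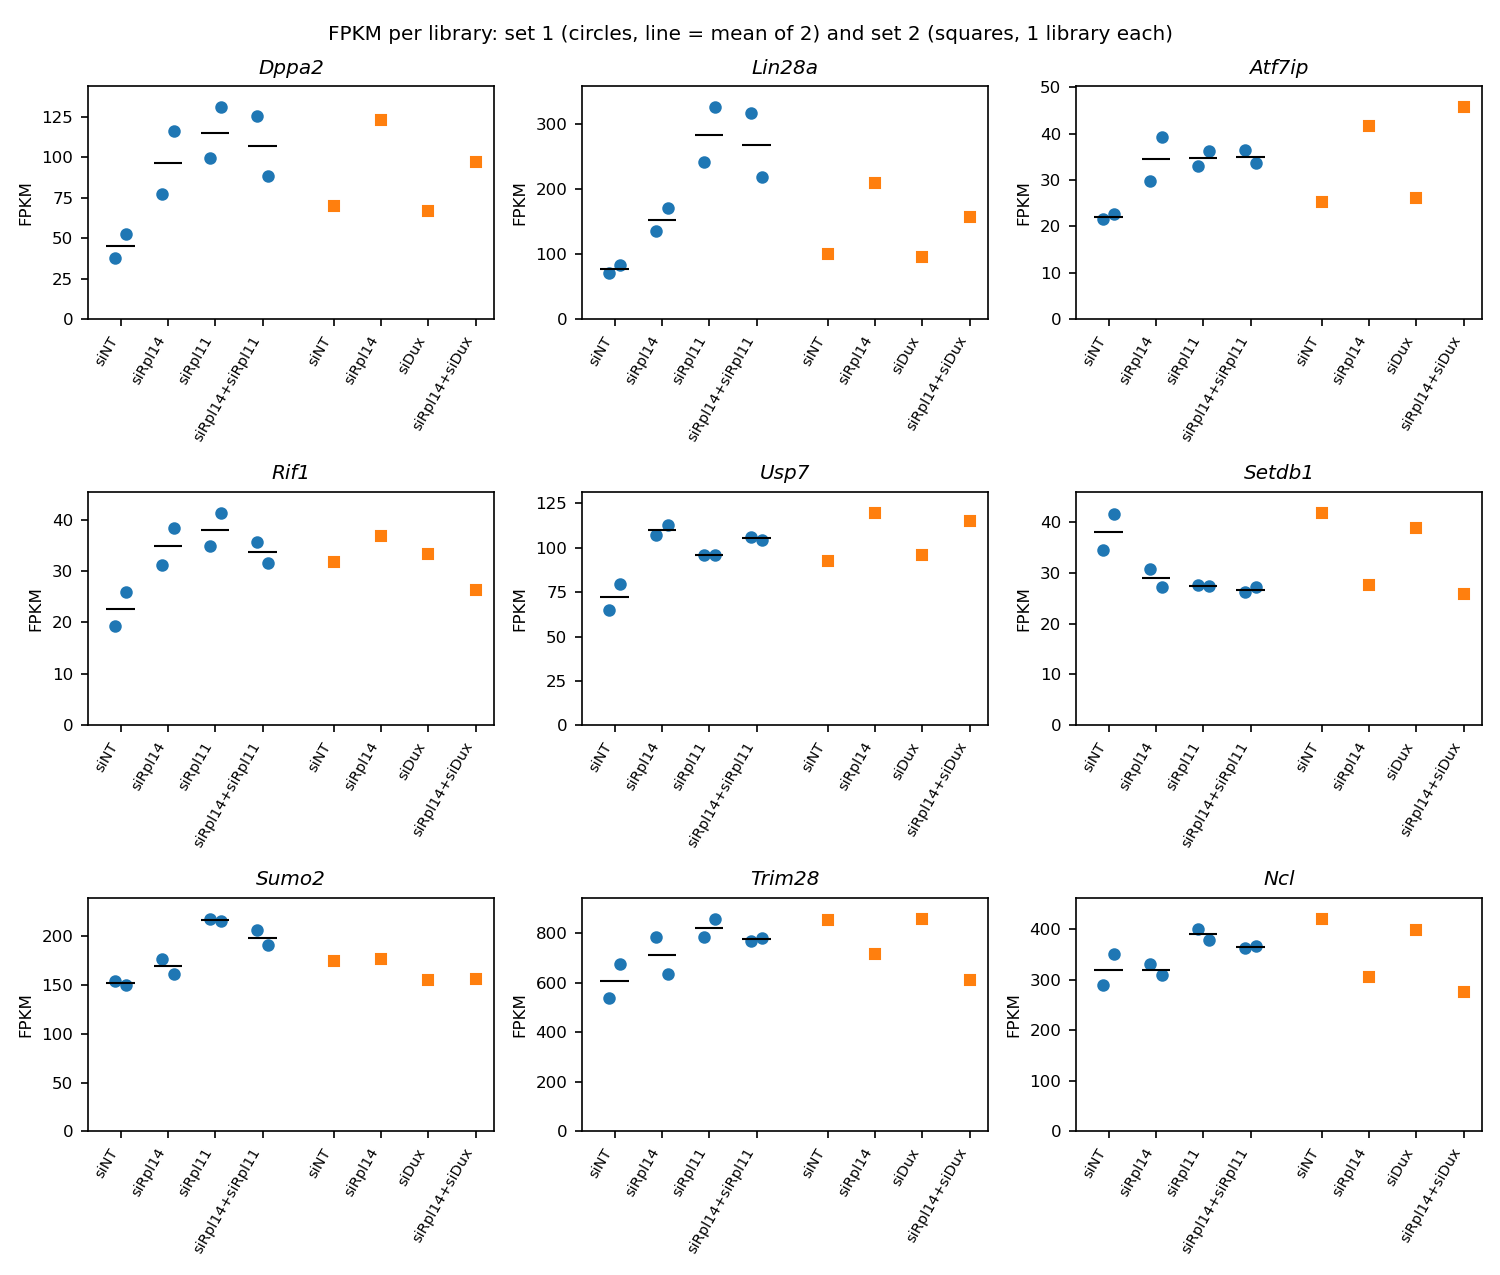
FPKM in each library of set 1 (circles, with a line at the mean of 2) and set 2 (squares, 1 library each) for 9 members: Dppa2, Lin28a, Atf7ip, Rif1, Usp7, Setdb1, Sumo2, Trim28 and Ncl. Axes start at 0. Lin28a stands at 219 to 326 FPKM in the 4 plotted libraries that received siRpl11. With siRpl14 alone it stands at 135 and 171 FPKM in set 1 and at 209 FPKM in set 2, close to the lowest of these.

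Adding siRpl11 to siRpl14 left no member past the threshold, although 7.24% of all genes passed. At an unadjusted p under 0.05 there were 2752 of the 12129 genes tested and 3 members. The smallest adjusted p was that of Lin28a, which was at 135 and 171 FPKM with siRpl14 alone and 317 and 219 FPKM with both (0.79 ± 0.22, adjusted p = 0.0696). Dppa2 overlapped between these groups (0.15 ± 0.26, adjusted p = 0.775), as did Atf7ip (0.03 ± 0.14). Setdb1 differed by -0.11 ± 0.12. Of all calls in this comparison 8.66% were higher as deposited and 24.9% and 22.9% under the 2 scalings.

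In the direct comparison of siRpl14 with siRpl11, 2 of 36 members were lower with siRpl14 and none higher, against 13.4% of all genes (12% higher and 1.45% lower). They were Lin28a (-0.88 ± 0.22, adjusted p = 0.0349) and Sumo2 (-0.36 ± 0.09, adjusted p = 0.0449). The calls did not last. Leaving out 1 library gave 0 or 1 called members whichever of the 8 it was, and 9 were called, all lower, after median-ratio rescaling. Of all calls 89.2% were higher as deposited, 54.6% with median-ratio rescaling and 64.6% with quantile normalization, and the median change of all genes went from 0.12 to -0.04 and -0.04. Dppa2 (-0.27 ± 0.26), Atf7ip (-0.02 ± 0.14) and Setdb1 (0.07 ± 0.12) did not differ past the threshold between the 2 knockdowns.

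The interaction term asks whether the combined change departs from the sum of the 2 single changes on the log2 scale. It called no member, against 4.49% of all genes. An unadjusted p under 0.05 was found for 3534 of the 12129 genes tested and for 7 members. The smallest adjusted p values belonged to Lin28a (-1.06 ± 0.31, adjusted p = 0.0774), L3mbtl2 (-0.45 ± 0.14, adjusted p = 0.089) and Dppa2 (-1.18 ± 0.36, adjusted p = 0.0892), all with a combined change below the sum. Without siRpl14 replicate 1 it called 2 members, and 1199 of 11958 genes. With a replicate block in which the combined libraries were crossed, chosen after seeing the data, it called 8 (29.9% of all genes), and the combined knockdown against siRpl14 called 3 (18.9%).

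Set beside the members, readout genes of the 2C-like state followed another order. Zscan4d, which is transcribed in 2C-like cells, was at 11.3 and 12.7 FPKM in siNT and 35.7 and 36.2 FPKM with siRpl14 (1.51 ± 0.12, adjusted p = 0.000665). It was at 7.02 and 8.11 FPKM with siRpl11 and 9.42 and 8.93 FPKM with both. Dux was at 0.368 and 0.202 FPKM in siNT, 1.45 and 1.11 FPKM with siRpl14, 0.482 and 0.296 FPKM with siRpl11 and 0.524 and 0.687 FPKM with both. Of 8 such readout genes, a list chosen with these results known, 8 rose with siRpl14, where 18.1% of all genes rose. When siRpl11 was added to siRpl14, 7 of them fell, as did 802 of the 12129 genes tested, and 0 of the 36 members passed. With siRpl11 alone Dppa2 rose while Zscan4d fell (-0.60 ± 0.12, adjusted p = 0.00655).

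Treatment with siDux moved no member past a threshold. The level of Dux itself in these libraries is not given here, so how far it was lowered is not shown. In set 2 none of 36 differed by a fold of 1.5 or more between siDux and siNT, against 0.988% of all genes, and differences lay between -0.18 and 0.23. In the same pair Zscan4d was at 0.688 FPKM with siDux against 26.1 FPKM. Dppa2 was at 67.1 FPKM with siDux against 69.8 FPKM, Lin28a at 96.0 against 101 FPKM, Trim28 at 857 against 855 FPKM and Setdb1 at 38.7 against 41.7 FPKM. In set 3 no member passed limma's test, against 0.00758% of all genes. An unadjusted p under 0.05 was found for 660 of the 13189 genes tested and for 1 member. That was Lin28a, at 48.2 and 40.0 FPKM with siDux and 59.8 and 75.9 FPKM in siNT, groups that did not overlap (-0.61 ± 0.21, adjusted p = 0.911). The difference of Lin28a in set 2 was -0.07. Of the 6 readout genes tested in set 3, 0 passed either (median -1.38), so that fit can miss changes of this size.

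Adding siDux to siRpl14 moved no member past that fold in set 2 either. None of 36 differed by a fold of 1.5 or more between siRpl14+siDux and siRpl14, against 2.26% of all genes, and differences lay between -0.47 and 0.22. Atf7ip was at 45.7 FPKM with both against 41.7 FPKM with siRpl14, Usp7 at 115 against 119 FPKM and Setdb1 at 25.7 against 27.6 FPKM. The lowest ratios were those of Rif1 (26.3 against 36.8 FPKM), Lin28a (158 against 209 FPKM) and Dppa2 (96.9 against 123 FPKM). Zscan4d was at 2.92 against 58.1 FPKM in the same libraries. Against siNT, 8 members differed by a fold of 1.5 or more in FPKM + 1 with siRpl14+siDux, against 29.2% of all genes (16.1% higher and 13.1% lower). Atf7ip, Lin28a and E2f6 were higher and Chaf1b, Ehmt2, Tet2, Setdb1 and Ncl lower. Pcgf6, at a ratio of 0.670, was just short of it.

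In set 3 siRpl14+siDux called no member against siNT (background 1.02%) or against siRpl14 (background 0.0152%), and the interaction of the 2 siRNAs called none (background 0.0152%). Members with an unadjusted p under 0.05 numbered 5, 4 and 1, against 1955, 894 and 699 of the 13189 genes tested. Against siRpl14, Lin28a was at 56.3 and 60.1 FPKM with both and 87.7 and 93.6 FPKM with siRpl14, groups that did not overlap (-0.63 ± 0.21, adjusted p = 0.567). Dppa2 was at 44.0 and 44.2 FPKM with both, within the 42.2 and 58.4 FPKM of siRpl14 (-0.17 ± 0.25, adjusted p = 0.93). Pcgf6 was at 1.32 and 1.67 FPKM against 4.90 and 9.04 FPKM (-1.63 ± 0.50, adjusted p = 0.535), levels near the lowest that this table resolves. Against siNT the smallest adjusted p was that of Setdb1, at 14.1 and 8.68 FPKM against 25.02 and 22.9 FPKM (-1.05 ± 0.32, adjusted p = 0.195). Lin28a was lower with siDux than without it in each of the 2 backgrounds of both sets, by -0.07 and -0.40 in set 2 and by -0.61 and -0.63 in set 3, with no test passed. In group means, other members were lower in all of these comparisons too, among them Dppa2, Ncl, Sumo2, Hdac1 and Sae1. The share of all genes with this pattern was not counted.

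**Figure D5:**
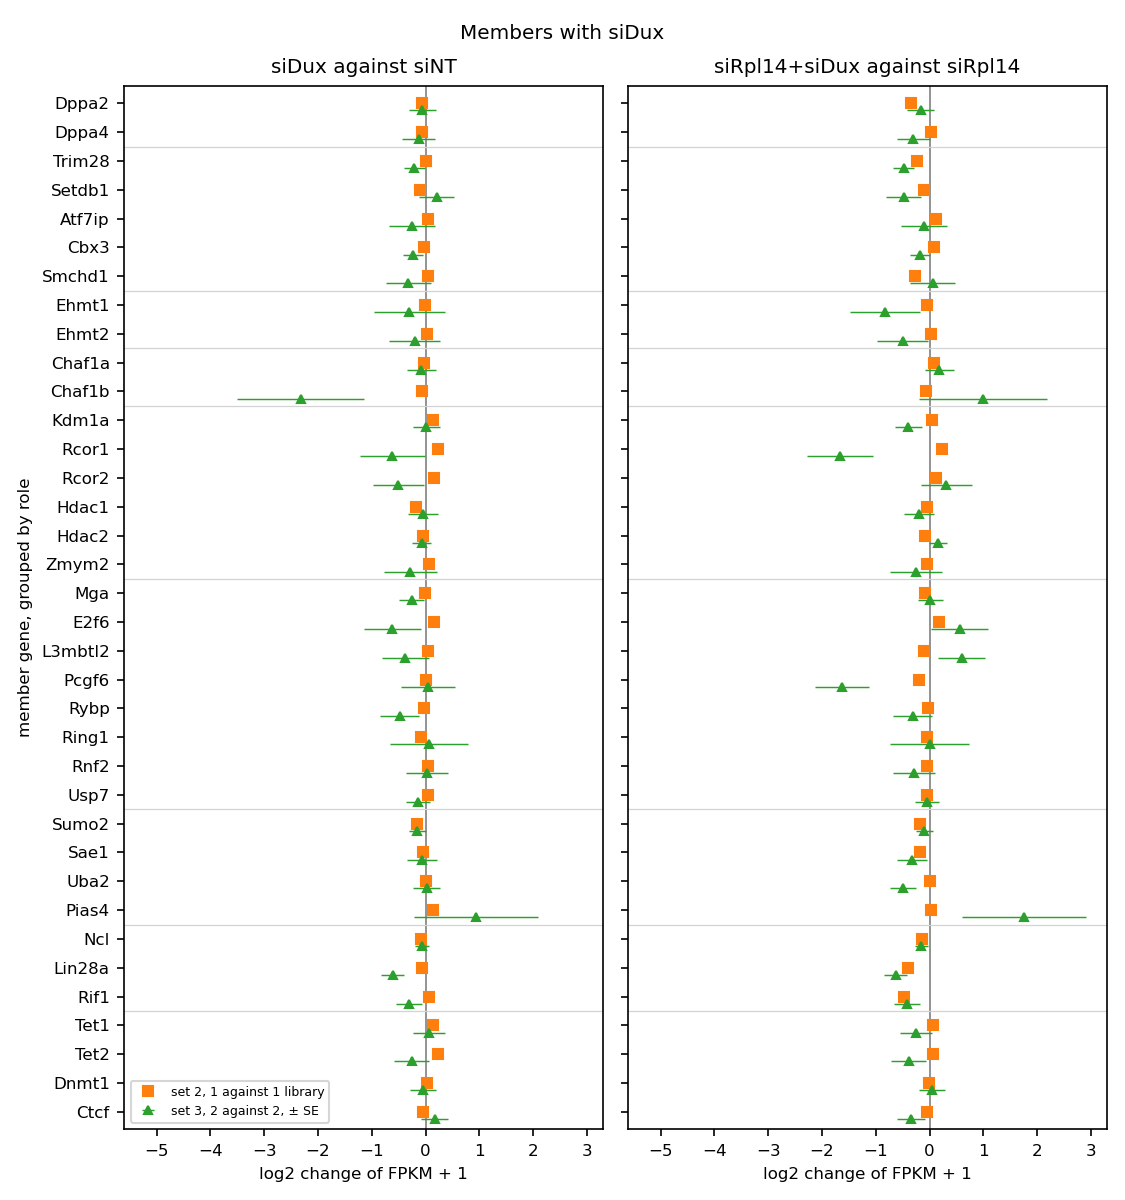
Change on the log2(FPKM + 1) scale for the 36 members with siDux against siNT (left) and with siRpl14+siDux against siRpl14 (right), in the single pairs of set 2 (squares, no error) and in set 3 (triangles, ± SE, 2 libraries a group). Set 2 points lie between -0.47 and 0.23, and set 3 has wider errors, most of all for Chaf1b and Pias4, which are listed at 0 in some of its libraries.

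Other regulators of the same pathways were taken as a list of 39 genes. With siRpl14 in set 1, 9 rose and 4 fell (33.3%, against 31.5% of all genes). The largest rises were Trp53 (1.00 ± 0.26), the gene of p53, Zfp644 (0.69 ± 0.17), a partner of G9a/GLP, and the de novo methyltransferase gene Dnmt3a (0.68 ± 0.17). The largest falls were Phf21a (-0.93 ± 0.14), a reader subunit of the LSD1 complex, Uhrf1 (-0.60 ± 0.17), the partner of DNMT1, and Wdr5 (-0.57 ± 0.13). With siRpl11, 15 rose and 4 fell (48.7%, against 44.3% of all genes). Trp53 (1.71 ± 0.26), Dnmt3a (1.53 ± 0.17) and Dnmt3b (1.31 ± 0.13) rose most, and Phf21a (-0.90 ± 0.14), Wdr5 (-0.81 ± 0.13) and the LSD1 complex gene Hmg20b (-0.63 ± 0.11) fell most. With both siRNAs, 14 rose and 4 fell (46.2%, against 41.6%), and Trp53, Dnmt3a, Dnmt3b, Phf21a, Wdr5 and Hmg20b led again.

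Against siRpl14 alone, the combined knockdown raised Dnmt3b (0.84 ± 0.13, adjusted p = 0.0118) and Dnmt3a (0.80 ± 0.17, adjusted p = 0.0299) and lowered Hmg20b (-0.69 ± 0.11, adjusted p = 0.0127). Hmg20b was at 16.5 and 17.2 FPKM in siNT, 17.3 and 16.9 FPKM with siRpl14, 10.9 and 10.1 FPKM with siRpl11 and 9.64 and 10.8 FPKM with both. It was the only gene of the 39 that fell in this comparison, where 3 were called (7.69%, against 7.24% of all genes). Its levels with siRpl14 overlapped siNT. Called interactions made up 2.56% of the 39, against 4.49% of all genes. The only one was that of Dppa3, a maternal factor gene that binds UHRF1 (-1.41 ± 0.23, adjusted p = 0.0265). It was at 9.54 and 6.46 FPKM in siNT, 13.2 and 13.2 FPKM with siRpl14, 20.8 and 20.9 FPKM with siRpl11 and 12.8 and 11.5 FPKM with both.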

How the data were processed

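RNA-seq libraries from E14 cells were analysed from 2 tables of FPKM values that the authors deposited, with 1 column per library and 22 libraries in all. STAR and Cuffnorm on the build mm9 are named in the submitters' processing notes. Of the versions, the gene annotation, the strand setting and the scaling of libraries nothing is stated, and they stand as not given in the sources used here. Every test stayed within a table, since each may have had its own normalization. No column was left out.

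Sets 1 (8 libraries) and 3 (8 of its 10) were each fitted with limma 3.58.1 (R 4.3.3, statmod 1.5.0) on log2(FPKM + 1), with a minimum of 1 FPKM in 2 or more libraries and with trended and robust moderation. Benjamini-Hochberg adjusted p-values over all genes were read at 0.05. Single libraries were described by a fold of 1.5 in FPKM + 1 without a test. Scripts were tested on simulated data. The members and the gene lists were chosen with earlier results of these data known. The rule was that any member may be named. Values per library were to be given for members called with siRpl14, in the combined knockdown against siRpl14 or in set 3, and for 10 fixed members, and they were added for further members called with siRpl11 after these were seen. Of the other regulators at most 3 a direction and comparison were to be named, with Dux and Zscan4d as readout. Alternatives were other pseudocounts, filters, scalings and moderation, a replicate block, a joint fit and leaving out each library.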

Additional observations from a re-analysis of the deposited data

How the results depend on the processing

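No called member changed direction under any alternative, and the 5 comparisons of set 3 called 0 members in every setting. Leaving out 1 library at a time gave 0 to 9 called members for siRpl14 against siNT (6 with all libraries), 3 to 17 for siRpl11 (16), 1 to 13 for the combined knockdown (13), 0 to 1 for the combined knockdown against siRpl14 (0), 0 to 1 for siRpl14 against siRpl11 (2) and 0 to 2 for the interaction (0). A group left with 1 library is assumed to vary like the others. The joint fit of sets 1 and 2 called 15 members with siRpl14 (47.7% of all genes). For the combined knockdown against siNT, no filter on low values gave 8. For siRpl14 against siRpl11, no filter gave 0, a mean of at least 5 FPKM 1, median-ratio rescaling 9, quantile normalization 1, no trend and robust moderation 1, and the replicate block 0. With the replicate number as a block the counts were 5 for siRpl14, 13 for siRpl11, 10 for the combined knockdown and 0 in all other comparisons. Across genes of set 1, deviations of same-numbered libraries correlated at 0.18 to 0.50 among siNT, siRpl14 and siRpl11 and at -0.50 to -0.24 between these and the combined knockdown. In set 3 they correlated at 0.006 to 0.039. Not every pair was positive, and the numbers were not taken as a pairing. With the combined libraries crossed in the block, an alternative chosen after seeing the data, 21 members were called for the combined knockdown against siNT (56.7% of all genes), 3 against siRpl14 (18.9%) and 8 for the interaction (29.9%). Depth is unknown, and in set 3 low values are too coarse to follow Ring1, Pias4 or Chaf1b.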
